A study of Danio rerio with 12 samples.

Results

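The genes described here are the 8 components of the Hedgehog pathway *shha*, *shhb*, *ptch1*, *smo*, *hhip*, *gli1*, *gli2a* and *gli3*. The rule is a list of names that uses no measured value, although the list was drawn up with earlier results of these data known. All 8 had a row in both tables, which list 21570 and 21119 genes. The tables hold RNA-seq of zebrafish cardiomyocytes at 20 hours post-fertilization (hpf), sorted by flow cytometry for a fluorescent reporter driven by the promoter of the cardiomyocyte gene *myl7*. In the loss-of-function experiment, 3 libraries of homozygous *hand2 FLD*-/- embryos, whose allele is a deletion across the *hand2* locus, were compared with 3 libraries of *hand2 FLD*+/? siblings. The ? means that the second allele was WT or mutant. The sample descriptions name these siblings WT-Het, although another label calls them WT. In the gain-of-function experiment, 3 libraries of *hand2* OE embryos, which carry *hand2-p2a-EGFP* behind a *myl7* promoter, were compared with 3 libraries of their WT siblings. Hand2 is a bHLH transcription factor of the lateral plate mesoderm that the zebrafish heart needs in order to form. The transgene of *hand2* OE acts only in cells and at stages in which the *myl7* promoter is active. The study describes the 3 libraries of a group as biologically independent. It names the sorted reporter as *myl7*:EGFP for the mutant experiment, and as EGFP in one place and mCherry in another for the *hand2* OE experiment.

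Hedgehog ligands are secreted, lipid-modified proteins that bind the receptor Patched on the receiving cell. Unbound Patched holds the membrane protein Smoothened inactive, and ligand binding frees Smoothened to act, at the primary cilium, on the Gli transcription factors, which then switch target genes on or cease to repress them. Several targets are themselves part of the pathway, among them *ptch1*, *gli1* and *hhip*, so that their transcripts are often used as a readout of its activity. In zebrafish, Hedgehog signalling in the early embryo promotes the formation of cardiomyocytes.

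All values are normalized read counts, scaled by the authors within each experiment, and a gene was called where its Benjamini-Hochberg adjusted p over all genes tested was at most 0.05 in limma and its fold change at least 1.5. Summed over genes, the normalized read counts came to between 5322231 and 6965321 per library, from an estimated 5003000 to 7658000 counted reads. *hand2* itself was at 2228, 2336 and 2380 in *hand2 FLD*+/? and at 149, 427 and 45 in *hand2 FLD*-/-. It was at 2159, 1939 and 2102 in *hand2* OE beside 1671, 1667 and 1611 in WT, the labelled direction in every library, though the log2 fold change of 0.32 was under 1.5-fold. Cardiomyocyte transcripts were abundant throughout. The 7 of 8 listed cardiomyocyte markers found in the tables summed to between 29675 and 32956 in *hand2 FLD*+/?, 19228 and 20430 in *hand2 FLD*-/-, 36771 and 40962 in *hand2* OE, and 38317 and 42956 in WT. The drop of this sum in the mutant experiment lay largely in *ttn.2*, whose mean went from 18152 to 11207, and *myh6*, from 3755 to 726. The remaining markers were not called there. Their log2 fold changes were -0.56 (*actn2b*), -0.24 (*myl7* and *tnnt2a*), -0.19 (*cmlc1*) and -0.02 (*nkx2.5*). In this bulk RNA, fewer cells of a type and less RNA per cell cannot be told apart.

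Of the 8 genes, *hhip* was called in *hand2 FLD*-/- cardiomyocytes, where it fell, and again in *hand2* OE cardiomyocytes, where it rose. That is 1 of 8 tested genes in the mutant experiment, beside 18.5% of all genes tested, and 1 of 7 tested genes in the *hand2* OE experiment, beside 4.1%, and neither share is read as a result about the 8 genes together. The receptor *ptch1*, the transducer *smo* and the target *gli1* were not called in either experiment. The 8 genes lie on 8 different chromosomes of the genome build danRer11, and *hhip* is on that of *hand2*.

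**Figure D1:**
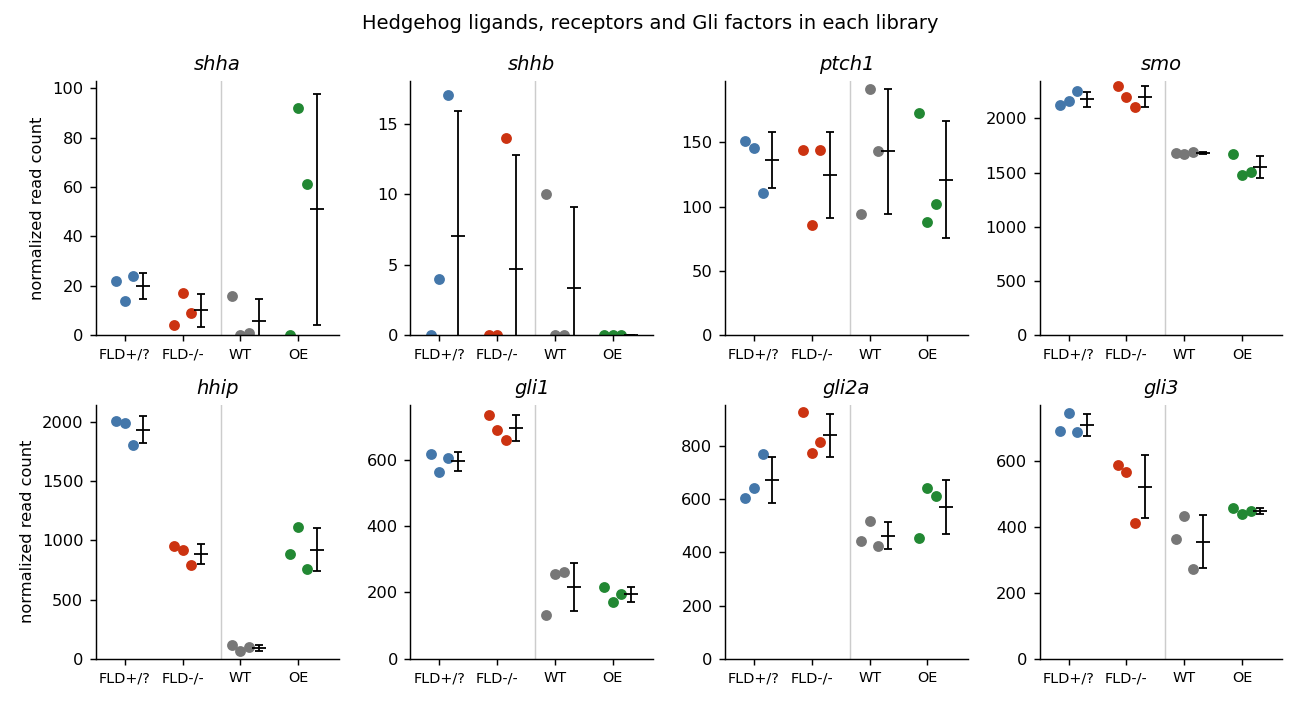
Normalized read count of each Hedgehog gene (vertical axis, from 0, a different scale in each panel) in each library (points), with the mean and SD of the 3 libraries of a group (bars, which for low genes run below the axis). The grey line separates the 2 experiments, which were normalized separately. *hhip* lies between 1805 and 2001 in *hand2 FLD*+/? and between 789 and 948 in *hand2 FLD*-/-, and between 759 and 1115 in *hand2* OE beside 66 and 119 in WT, while *shha* and *shhb* reach 92 at most.

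The ligand genes were at low normalized counts, with at least 1 library at 0 for *shhb* in every group and for *shha* in WT and *hand2* OE. *shha* (ENSDARG00000068567, chromosome 7, 40884012 to 40893295), which encodes the main Sonic hedgehog ligand of notochord, floor plate and endoderm, was at 22, 14 and 24 normalized read counts in *hand2 FLD*+/? and at 4, 17 and 9 in *hand2 FLD*-/-. The groups overlapped, and the log2 fold change was -1.09 with a 95% interval from -2.47 to 0.30 (adjusted p = 0.222, limma). In the *hand2* OE experiment *shha* was at 16, 0 and 1 in WT and at 0, 92 and 61 in *hand2* OE. Here the interval of the log2 fold change, from -1.65 to 6.59 around 2.47, spans both directions (adjusted p = 0.501, limma). *shhb* (ENSDARG00000038867, chromosome 2, 30050541 to 30055432), the paralog known as tiggywinkle hedgehog and expressed in the floor plate, was at 0, 4 and 17 in *hand2 FLD*+/? and at 0, 0 and 14 in *hand2 FLD*-/-. Its log2 fold change of -0.86 had an interval from -4.12 to 2.39 (adjusted p = 0.696, limma). In the other table it was at 10, 0 and 0 in WT and at 0 in all *hand2* OE libraries, under the mean of 5 needed for a test. No difference in ligand transcripts was called, and the intervals of those tested are wide.

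Markers of tissues that produce Hedgehog ligands were detected in both experiments. The 7 listed notochord and floor plate markers summed to 188, 858 and 240 in *hand2* OE beside 258, 72 and 132 in WT. The library of 858, *hand2* OE replicate 2, was also the one with 92 of *shha*, and 606 of its 858 were *col2a1a*, a collagen of notochord and cartilage. The same library had the highest sum of its group for the listed epidermis markers (2925, beside 309 and 1225), neural markers (2143, beside 1190 and 1091) and endothelial markers (664, beside 342 and 405). Without it the called genes of the experiment went from 677 to 357. Uneven sums were not particular to this library. Epidermis markers summed to 637, 2387 and 718 in *hand2 FLD*+/? and to 1464, 409 and 1629 in WT. Listed blood markers summed to 35, 329 and 59 in WT. The floor plate factor *foxa2* was at 0, 40 and 42 in the same *hand2* OE libraries in which *shha* was at 0, 92 and 61. Other markers of the list did not follow *shha* in this way. In these libraries *ntd5* was at 94, 58 and 80, *tbxta* at 18, 47 and 16, and *col8a1a* at 18, 90 and 17. The notochord factor *noto* was at 0 in every WT library and at 6, 0 and 0 in *hand2* OE, and *foxj1a*, a regulator of motile cilia, was at 0 in WT and at 9, 17 and 1 in *hand2* OE. In the mutant experiment 6 of the 7 markers were in the table, 1 rose and 1 fell, and they summed to between 208 and 331 in *hand2 FLD*+/? and between 1000 and 1822 in *hand2 FLD*-/-. The marker that rose was *tbxta*, the Brachyury gene of notochord and early mesoderm, at 86, 23 and 30 in *hand2 FLD*+/? and at 867, 718 and 834 in *hand2 FLD*-/-. The marker that fell was *ntd5*, at 102, 106 and 101 and at 33, 54 and 51, and the sum of 1822, in *hand2 FLD*-/- replicate 2, held 913 of *col2a1a*. The listed endoderm markers summed to between 135 and 154 in *hand2 FLD*+/? and between 297 and 401 in *hand2 FLD*-/-. Of the 5 tested, 1 was called, *foxa3*, which rose from 16, 38 and 46 to 230, 260 and 191. *foxa1* went the other way without a call, from 19, 21 and 16 to 12, 9 and 1. The uncalled *sox17*, *nkx2.1* and *cdx1b* had log2 fold changes of 1.08, 1.60 and 0.29. The part of these cells in the ligand values was not tested.

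*ptch1* and *smo* were detected in every library, and their groups overlapped in both experiments. *ptch1* (ENSDARG00000016404, chromosome 8, 29962635 to 30068277), the Patched receptor, was at 151, 146 and 111 in *hand2 FLD*+/? and at 144, 86 and 144 in *hand2 FLD*-/-. Its log2 fold change of -0.15 had an interval, from -0.71 to 0.41, that reached past the fold threshold on the lower side (adjusted p = 0.689, limma). In WT it was at 94, 192 and 143 and in *hand2* OE at 173, 88 and 102, with a log2 fold change of -0.24 and an interval from -1.01 to 0.53 (adjusted p = 0.752, limma). Replicates of one group spread about as widely as the groups together in this gene. *smo* (ENSDARG00000002952, chromosome 4, 14971239 to 14979937), which encodes Smoothened, was at 2119, 2156 and 2255 in *hand2 FLD*+/? and at 2302, 2195 and 2105 in *hand2 FLD*-/-. Its log2 fold change was 0.02 with the narrowest interval of the 8 genes in this experiment, from -0.09 to 0.12 (adjusted p = 0.831, limma). In WT it was at 1685, 1671 and 1686 and in *hand2* OE at 1672, 1482 and 1501, a log2 fold change of -0.12 with an interval from -0.24 to 0.01 (adjusted p = 0.278, limma). Both intervals for *smo* lie within the fold threshold of 1.5, which is 0.585 on the log2 scale.

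*hhip* (ENSDARG00000060397, chromosome 1, 35790082 to 35835863) encodes Hedgehog interacting protein, a cell surface glycoprotein that binds the ligands and so limits how much of them reaches Patched. It was at 2001, 1992 and 1805 in *hand2 FLD*+/? and at 948, 921 and 789 in *hand2 FLD*-/-. The groups did not overlap, and the mean fell from 1933 ± 111 to 886 ± 85.1 (SD, n = 3), a 2.18-fold lower level with a log2 fold change of -1.13 ± 0.08 (SE; 95% interval from -1.30 to -0.95; adjusted p = 1.00e-05, limma). By size this was rank 1074 among the 1685 genes that fell, which were 9.43% of the genes tested. In the *hand2* OE experiment *hhip* was at 119, 66 and 96 in WT and at 883, 1115 and 759 in *hand2* OE. Again the groups did not overlap, and the mean rose from 93.7 ± 26.6 to 919 ± 181 (SD, n = 3), 9.81-fold, with a log2 fold change of 3.30 ± 0.23 (SE; 95% interval from 2.79 to 3.82; adjusted p = 0.000201, limma). By size it was rank 37 among the 418 genes that rose, which were 2.53% of the genes tested, and by p rank 15 of 16510. The exact two-sided permutation test gave p = 0.1 in each experiment, the smallest that 3 libraries against 3 allow. With each library left out in turn, the log2 fold change stayed between -1.18 and -1.05 in *hand2 FLD*-/- and between 3.07 and 3.49 in *hand2* OE.

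The experiments share no library, and 15931 genes were tested in both. Of these, 232, or 1.46%, were lower in *hand2 FLD*-/- and higher in *hand2* OE at the call thresholds, *hhip* among them. Within the 232 genes *hhip* ranked 19 by the size of the rise in *hand2* OE and 163 by the size of the fall in *hand2 FLD*-/-. The control libraries of the experiments differed in *hhip* as well, with 1933 ± 111 in *hand2 FLD*+/? beside 93.7 ± 26.6 in WT, so that the *hand2* OE mean of 919 stood near the *hand2 FLD*-/- mean of 886. For comparison, control means in *hand2 FLD*+/? and WT were 2177 and 1681 for *smo*, 136 and 143 for *ptch1*, and 595 and 216 for *gli1*. A gap of this kind was not particular to *hhip*. Control means were 238 and 5.67 for *foxf2a* and 192 and 3 for *foxf1*, larger ratios than that of *hhip*. Their WT libraries were near the floor, at 11, 6 and 0 and at 9, 0 and 0. For *cdon* the control means were 3106 and 1525, a smaller ratio than that of *gli1*. These genes, like *hhip*, fell in *hand2 FLD*-/-, *gli1* aside. Levels were not tested across the tables, which were normalized separately.

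On chromosome 1, the gap between *hhip* and the *hand2* gene, at 38193147 to 38195012, is 2.36 Mb. Within 3 Mb of *hand2*, 60 genes were tested in the mutant experiment, of which 5 rose and 6 fell, or 18.3% beside 18.5% of all genes, and 59 in the *hand2* OE experiment, of which 3 rose and 3 fell, or 10.2% beside 4.1%. *hhip* itself is counted here, among the 6 that fell in the mutant experiment and the 3 that rose in *hand2* OE. Within 1 Mb, 1 rose and 3 fell of 16 genes in *hand2 FLD*-/-, and 1 rose and 1 fell of 15 in *hand2* OE, with median log2 fold changes of 0.39 and 0.10. Within 3 Mb the median log2 fold change was 0.03 in *hand2 FLD*-/- and 0.05 in *hand2* OE.

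**Figure D2:**
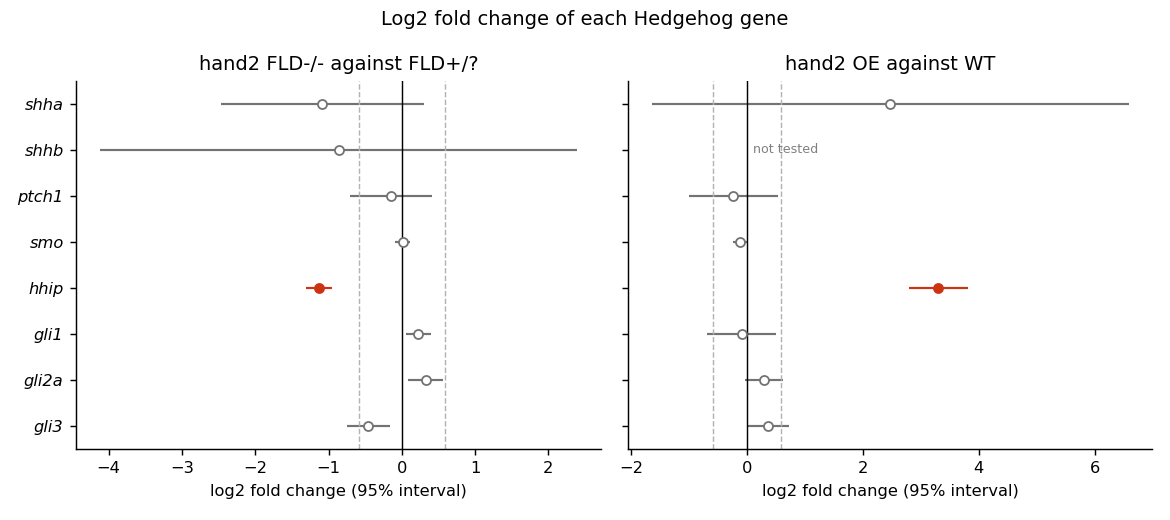
Log2 fold change (horizontal axis) of each Hedgehog gene (vertical axis) in *hand2 FLD*-/- against *hand2 FLD*+/? (left) and in *hand2* OE against WT (right). Points are limma estimates on log2(value + 1), lines their 95% intervals, dashed lines the fold threshold of 1.5, and filled red points called genes. *hhip* is the called gene on each side, at -1.13 and 3.30, and *shhb* was not tested on the right.

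None of the 3 Gli genes among the 8 was called in either experiment, although 2 of them, *gli2a* and *gli3*, had an adjusted p under 0.05 in the mutant experiment with a change smaller than 1.5-fold. *gli1* (ENSDARG00000101244, chromosome 6, 59426148 to 59505589), an activator and a classical target of the pathway, was at 617, 563 and 605 in *hand2 FLD*+/? and at 735, 690 and 658 in *hand2 FLD*-/-. The groups did not overlap, but the log2 fold change of 0.22 ± 0.08 (SE; 95% interval from 0.05 to 0.39) missed the threshold (adjusted p = 0.0531, limma). In WT *gli1* was at 133, 254 and 261 and in *hand2* OE at 217, 172 and 194, a log2 fold change of -0.09 with an interval from -0.69 to 0.50 (adjusted p = 0.889, limma). *gli2a* (ENSDARG00000025641, chromosome 9, 37141836 to 37297485), whose mouse counterpart Gli2 is the main activator of the pathway, was at 605, 643 and 769 in *hand2 FLD*+/? and at 930, 776 and 816 in *hand2 FLD*-/-. Its log2 fold change was 0.33 (95% interval from 0.09 to 0.56; adjusted p = 0.0432, limma). The adjusted p was 0.144 without the trend and between 0.0812 and 0.140 with any of *hand2 FLD*+/? replicates 1 and 2 and *hand2 FLD*-/- replicates 1 and 3 left out. In WT it was at 443, 520 and 426 and in *hand2* OE at 455, 644 and 612, with overlapping groups and a log2 fold change of 0.29 with an interval from -0.04 to 0.62 (adjusted p = 0.303, limma).

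*gli3* (ENSDARG00000052131, chromosome 24, 11528270 to 11821505), whose mouse counterpart acts largely as a repressor of Hedgehog targets, was at 691, 747 and 689 in *hand2 FLD*+/? and at 587, 566 and 413 in *hand2 FLD*-/-. The groups did not overlap, and the log2 fold change was -0.46 ± 0.13 (SE; 95% interval from -0.75 to -0.17; adjusted p = 0.0248, limma). Without the trend the adjusted p was 0.105, with single libraries left out it ranged from 0.0206 to 0.0841, and without *hand2 FLD*-/- replicate 3 the log2 fold change was -0.30. In WT *gli3* was at 363, 433 and 271 and in *hand2* OE at 458, 438 and 448, again without overlap, with a log2 fold change of 0.36 and an interval from -0.01 to 0.73 (adjusted p = 0.252, limma). The span of *gli2a* overlaps BX548071.1 on the same strand in both tables, and that of *gli3* overlaps BX005153.1 on the opposite strand in the *hand2* OE table. The use of strand in counting is not given in the sources used here, and reads that fell in several genes were left out, so that these values are less certain. Counted over the 8 genes, the groups did not overlap for 4 of 8 in the mutant experiment, beside 44.3% of all genes tested, and for 2 of 7 in the *hand2* OE experiment, beside 26.1%.

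Co-receptors, which help a cell bind ligand, included genes that fell in *hand2 FLD*-/-. Of 9 genes tested in the list of co-receptors and surface modulators, 2 fell, or 22.2% beside the 18.5% of all genes called and the 9.43% that fell, none rose, and the median log2 fold change was -0.56, beside 0.00 over all genes. *cdon*, which encodes a ligand-binding protein of the immunoglobulin superfamily, was at 3114, 3089 and 3116 in *hand2 FLD*+/? and at 1490, 1489 and 1427 in *hand2 FLD*-/-. It fell by 1.08 ± 0.04 on the log2 scale (SE; adjusted p = 2.73e-07, limma), with a spread between replicates far smaller than the difference. *gas1b*, which encodes a membrane-anchored co-receptor, was at 1131, 1045 and 1368 in *hand2 FLD*+/? and at 795, 779 and 639 in *hand2 FLD*-/-, and fell by 0.68 on the log2 scale (adjusted p = 0.00198, limma). With *hand2 FLD*+/? replicate 3 left out the log2 fold change was -0.57, and with *hand2 FLD*-/- replicate 3 left out -0.58, both just short of the fold threshold. The paralog *gas1a* was at 986, 1041 and 1061 against 677, 754 and 665, a log2 fold change of -0.56 (adjusted p = 3.35e-04, limma) that stayed under 1.5-fold. The *cdon* relative *boc* was at 1239, 1271 and 1240 against 992, 1035 and 907, with a log2 fold change of -0.36 (adjusted p = 0.00208, limma). For these 4 of the 9 genes tested the groups did not overlap, beside 44.3% of all genes.

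In *hand2* OE none of the 7 tested genes of this list was called, beside 4.1% of all genes. The median log2 fold change was 0.40, beside 0.00 over all genes. *cdon* was at 1481, 1635 and 1460 in WT and at 2240, 2059 and 2172 in *hand2* OE, a log2 fold change of 0.50 ± 0.06 (SE; 95% interval from 0.37 to 0.63; adjusted p = 0.00209, limma), which is 1.41-fold. *gas1a* was at 556, 464 and 530 against 602, 735 and 715, with a log2 fold change of 0.40 and an interval from 0.16 to 0.65 (adjusted p = 0.0641, limma). *boc*, at 516, 633 and 673 against 681, 687 and 744, and *gas1b*, at 1034, 1023 and 1009 against 1043, 1072 and 1166, had adjusted p values of 0.292 and 0.435 in limma. For these 4 of the 7 genes tested the groups did not overlap, beside 26.1% of all genes, with a margin as small as 8 normalized counts for *boc*.

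**Figure D3:**
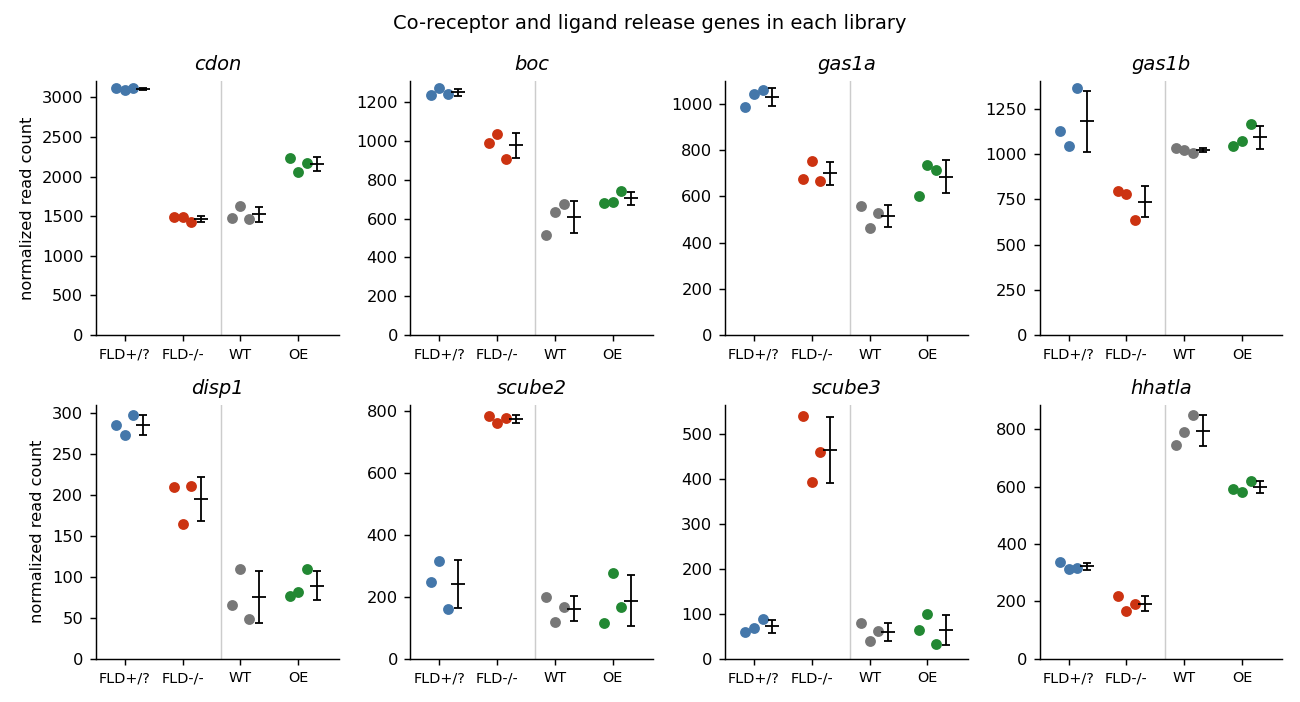
Normalized read count (vertical axis, from 0, a different scale in each panel) of 4 co-receptor genes and 4 genes from the list for ligand processing and release in each library (points), with the mean and SD of 3 libraries per group (bars). Of the latter, *hhatla* is a relative of the acyltransferase gene *hhat*, which is not shown. The grey line separates the separately normalized experiments. *cdon* lies between 3089 and 3116 in *hand2 FLD*+/? and between 1427 and 1490 in *hand2 FLD*-/-, and *scube3* between 59 and 88 and between 393 and 540.

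Among 8 tested genes for other ligands and for ligand processing and release, 2 rose in *hand2 FLD*-/-, beside 9.09% of all genes tested. Of the same genes 1 fell, beside 9.43% of all genes, and the median log2 fold change was 0.16, beside 0.00 over all genes. The genes that rose encode secreted proteins that help to free the lipid-modified ligand from the producing cell. *scube2* was at 248, 314 and 159 in *hand2 FLD*+/? and at 783, 759 and 776 in *hand2 FLD*-/- and rose 3.21-fold (log2 fold change 1.74; adjusted p = 2.74e-04, limma). *scube3* was at 59, 69 and 88 and at 540, 393 and 460 and rose 6.45-fold (log2 fold change 2.68; adjusted p = 1.33e-05, limma). The third paralog, *scube1*, was at 520, 574 and 366 against 578, 532 and 519, with a log2 fold change of 0.18 and an interval from -0.16 to 0.53. *hhatla*, a relative of the acyltransferase that attaches palmitate to the ligand, was at 336, 314 and 316 against 219, 168 and 191 and fell by 0.75 on the log2 scale (adjusted p = 0.00259, limma). The acyltransferase gene itself, *hhat*, was at 57, 60 and 94 against 80, 73 and 74, a log2 fold change of 0.14 (adjusted p = 0.736, limma). *disp1*, which encodes the Dispatched protein that exports the ligand, was at 285, 273 and 297 against 210, 164 and 211, a log2 fold change of -0.55 (adjusted p = 0.0153, limma) just short of the fold threshold.

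In *hand2* OE none of 8 tested genes of this list was called, and the median log2 fold change was 0.23. *scube2* was at 199, 120 and 166 in WT and at 116, 278 and 168 in *hand2* OE, and *scube3* at 79, 40 and 61 and at 64, 99 and 32, with overlapping groups. For *scube1*, at 220, 258 and 171 and at 152, 85 and 167, the groups did not overlap (log2 fold change -0.72; adjusted p = 0.188, limma). *hhatla* was at 744, 789 and 851 in WT and at 593, 580 and 620 in *hand2* OE, a log2 fold change of -0.41 (adjusted p = 0.0189, limma) under 1.5-fold. The desert hedgehog gene *dhh* reached 16 at most in any library.

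Inside the cell, 2 of 18 tested transducer genes fell and none rose in *hand2 FLD*-/-, or 11.1% called beside 18.5% of all genes. Their median log2 fold change was -0.15. In *hand2* OE none of 16 was called, beside 4.1% of all genes, with a median of -0.01. *stk36*, the homologue of the Fused kinase of *Drosophila*, was at 153, 185 and 187 in *hand2 FLD*+/? and at 72, 55 and 114 in *hand2 FLD*-/-. It fell by 1.17 on the log2 scale (adjusted p = 0.0102, limma). *gpr161*, a ciliary receptor that restrains the pathway through protein kinase A, was at 652, 668 and 604 and at 406, 470 and 406, with a log2 fold change of -0.59 (adjusted p = 0.00113, limma) that sits on the fold threshold. Its call was lost with a pseudocount of 5 (-0.58), with equal library totals (-0.54), and with any of *hand2 FLD*+/? replicates 1 and 2 and *hand2 FLD*-/- replicates 1 and 3 left out, where the log2 fold change was between -0.57 and -0.55. *gli2b*, the paralog of *gli2a*, was at 873, 878 and 915 against 1232, 1216 and 1176, a log2 fold change of 0.44 (adjusted p = 2.64e-04, limma) under 1.5-fold, and at 486, 582 and 486 against 478, 683 and 438 in the *hand2* OE experiment. *sufu*, the inhibitor that holds Gli proteins in the cytoplasm, had log2 fold changes of -0.16 (interval from -0.32 to 0.00) and -0.02 (from -0.19 to 0.14). The kinase gene *gsk3ba*, whose product phosphorylates Gli proteins, had log2 fold changes of -0.23 and -0.24, with adjusted p values of 0.0106 and 0.0287 in limma.

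Genes of the cilium, where vertebrate Smoothened acts, included 1 called gene. None of 17 tested was called in *hand2 FLD*-/-, beside 18.5% of all genes, with a median log2 fold change of -0.01, and 1 of 17 rose in *hand2* OE, or 5.88% beside 4.1% of all genes called, with a median of 0.12. The latter was *ift80*, a component of intraflagellar transport, at 94, 149 and 97 in WT and at 252, 185 and 269 in *hand2* OE (log2 fold change 1.06; adjusted p = 0.0365, limma). This call was lost in limma without the trend (adjusted p = 0.138) and without any of WT replicates 1 and 3 and *hand2* OE replicates 1, 2 and 3, with adjusted p values from 0.0540 to 0.127. *kif3a*, the motor subunit that carries cargo into the cilium, had the highest normalized counts of the list and was at 1222, 1224 and 1386 in *hand2 FLD*+/? and at 973, 994 and 1000 in *hand2 FLD*-/-. Its log2 fold change of -0.37 (adjusted p = 0.00201, limma) was under 1.5-fold.

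**Figure D4:**
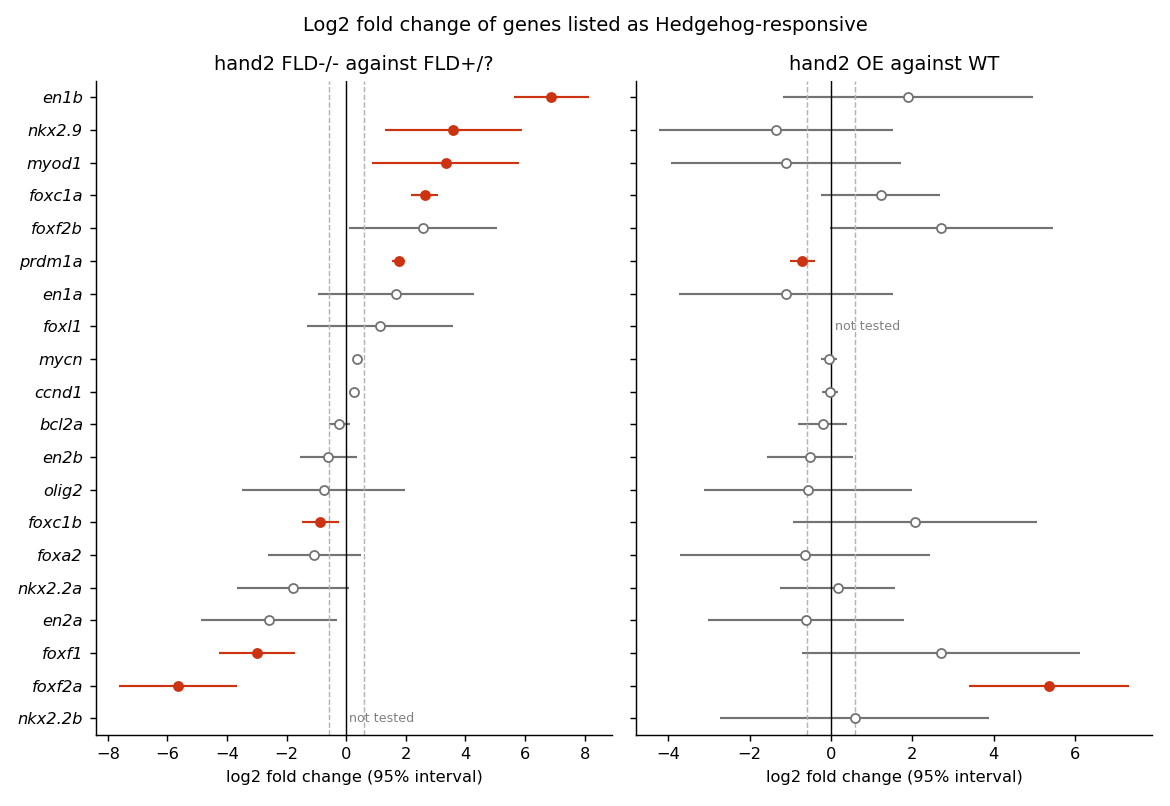
Log2 fold change (horizontal axis, with 95% intervals from limma) of 20 genes listed as responding to Hedgehog in some tissue (vertical axis) in *hand2 FLD*-/- against *hand2 FLD*+/? (left) and *hand2* OE against WT (right). Dashed lines mark 1.5-fold, and filled red points are called genes, which lie on both sides of 0. On the left *en1b* is at 6.88 and *foxf2a* at -5.64, and on the right *foxf2a* is at 5.36 and *prdm1a* at -0.70.

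Genes known to respond to Hedgehog in other tissues moved in both directions. Of 20 tested in *hand2 FLD*-/-, 5 rose and 3 fell, or 40%, beside 18.5% of all genes (9.09% rose and 9.43% fell), with a median log2 fold change of 0.04, and of 20 tested in *hand2* OE, 1 rose and 1 fell, with a median of -0.12, where 2.53% of all genes rose and 1.57% fell. The Forkhead gene *foxf2a*, which follows Hedgehog in mesenchyme, was at 246, 256 and 211 in *hand2 FLD*+/? and at 17, 5 and 0 in *hand2 FLD*-/-, and fell by 5.64 on the log2 scale (adjusted p = 0.00122, limma). It was at 11, 6 and 0 in WT and at 180, 219 and 144 in *hand2* OE, and rose by 5.36 on the log2 scale (adjusted p = 0.00936, limma). The rise was no longer called without *hand2* OE replicate 2 (adjusted p = 0.0540) or in limma without the trend (adjusted p = 0.0879). *foxf1*, a target of Hedgehog in the mouse lateral plate, was at 180, 174 and 221 in *hand2 FLD*+/? and at 8, 55 and 26 in *hand2 FLD*-/-, and fell by 3.00 on the log2 scale (adjusted p = 0.00355, limma). In the other experiment it was at 9, 0 and 0 in WT and at 31, 43 and 1 in *hand2* OE, without a call (adjusted p = 0.356, limma).

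The genes that rose in *hand2 FLD*-/- included *en1b*, an Engrailed gene of muscle pioneers and midbrain, at 4, 27 and 5 in *hand2 FLD*+/? and at 1077, 1130 and 1120 in *hand2 FLD*-/- (log2 fold change 6.88; adjusted p = 2.70e-05, limma). *foxc1a*, a Forkhead gene of paraxial mesoderm and vessels, was at 107, 68 and 118 and at 545, 587 and 658 (log2 fold change 2.63; adjusted p = 2.07e-05, limma). *prdm1a*, which directs slow muscle fate under Hedgehog in the somite, was at 503, 452 and 398 and at 1385, 1619 and 1567 and rose by 1.76 on the log2 scale (adjusted p = 3.15e-06, limma). In *hand2* OE *prdm1a* fell, from 546, 686 and 663 in WT to 422, 326 and 416 (log2 fold change -0.70; adjusted p = 0.0177, limma). This fall was not called without WT replicate 2 (adjusted p = 0.0701), WT replicate 3 (0.0662) or *hand2* OE replicate 2 (0.0501), or without the trend (0.131). The homeobox gene *nkx2.9* and the muscle factor *myod1* rose from low levels, *nkx2.9* from 0, 27 and 6 to 76, 62 and 71 (adjusted p = 0.0259, limma) and *myod1* from 25, 1 and 0 to 38, 50 and 26 (adjusted p = 0.0474, limma). For *nkx2.9* the call was lost without *hand2 FLD*+/? replicate 3 or any *hand2 FLD*-/- library (adjusted p up to 0.0794), and for *myod1* without any library but *hand2 FLD*+/? replicate 1 (up to 0.129). *foxc1b* fell by 0.87 on the log2 scale with overlapping groups, 277, 257 and 209 against 95, 121 and 211 (adjusted p = 0.0402, limma), and was not called without the trend (0.123) or without *hand2 FLD*+/? replicates 1 or 2 or *hand2 FLD*-/- replicates 1 or 2 (0.106 to 0.119). The cell cycle genes *ccnd1* and *mycn* had log2 fold changes of 0.27 and 0.38 in *hand2 FLD*-/-, both under 1.5-fold, and of -0.02 and -0.05 in *hand2* OE.

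Listed markers of endothelial cells also rose in *hand2 FLD*-/-. Of 6 listed, 5 were tested and all 5 rose, and the sum of the 6 was between 816 and 993 in *hand2 FLD*+/? and between 4097 and 4302 in *hand2 FLD*-/-, with *kdrl*, the endothelial VEGF receptor gene, at 216, 149 and 179 against 783, 738 and 803. The sixth, *pecam1*, reached 7 at most. In the *hand2* OE experiment none of the 6 was called, and the sums were between 244 and 439 in WT and between 342 and 664 in *hand2* OE. Of the cardiomyocyte markers, *myh6* and *ttn.2* fell in *hand2 FLD*-/- and none was called in *hand2* OE, where *nkx2.5* was between 1734 and 1935 in all 6 libraries. Of 6 listed neural markers, *sox2* rose in *hand2 FLD*-/-, from 52, 125 and 137 to 315, 334 and 376, and *elavl3* fell, from 506, 578 and 419 to 236, 310 and 247, with sums between 1101 and 1706 and between 1253 and 1474. Of 6 listed skeletal muscle markers, 1 rose, which was *myod1*, and 1 fell, with sums between 4098 and 4683 and between 3613 and 3674. In the *hand2* OE experiment *myod1* and *myog* reached 11 at most, while *tnnc2*, *acta1b* and *actc1b* were between 1339 and 2251 in every library. Whether the sums of this list come from skeletal muscle cells was not tested. The part of any of these cell types in the Hedgehog values was not tested.

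Over the 79 tested genes of all these lists, the 8 pathway components included, 7 rose and 9 fell in *hand2 FLD*-/-, or 20.3%, close to the 18.5% of all genes. In *hand2* OE 3 rose and 1 fell of 74, or 5.41%, beside 4.1%. Of 72 list genes tested in both experiments, *hhip* and *foxf2a* fell in *hand2 FLD*-/- and rose in *hand2* OE, or 2.78% beside 1.46% of all genes. *prdm1a* did the reverse, and no list gene was called in the same direction in both. Both outcomes were rare over all 15931 genes tested in both experiments, where 66 did the reverse, 45 fell in both and 24 rose in both. The deposited annotation has its own Hedgehog term from KEGG, with 47 genes tested in each experiment. In *hand2 FLD*-/- 5 of them fell, namely *hhip*, *cdon*, *gas1b*, *gpr161* and the casein kinase gene *csnk1e*, and none rose. That is 10.6%, beside the 18.5% of all genes called and the 9.43% that fell. In *hand2* OE *hhip* was the called gene of the term, 1 of 47 or 2.13%, beside 4.1% of all genes.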

How the data were processed

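Reads were trimmed by the authors with Trimmomatic 0.39, aligned to danRer11 with STAR 2.7.10a and counted per gene over exons with featureCounts 2.0.2, leaving out reads that fit several genes or places. The authors tested differences with DESeq2 1.30.1. The deposited values are scores, that is, read counts that the authors scaled by 1 factor for each library, separately for the 2 experiments, and then rounded, so no count model was used here. Depth was estimated from whole numbers that the scaling left out or doubled among low values.

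Values were analysed as log2(value + 1) with limma 3.58.1 in R 4.3.3 (lmFit, then eBayes with its abundance trend), each experiment alone, for genes whose mean was 5 or more. The steps were tested on simulated data, with the same spread for all genes and changes above 1.5-fold placed in genes with a mean of 50 or more. That test does not cover changes in lower genes or genes with a wider spread between replicates. A log2 fold change on this scale is a difference of mean logs. For low or uneven genes it can differ from the ratio of the means in size and in direction. In *hand2* OE, *foxa2* had a ratio of means of 1.52 and a log2 fold change of -0.64. In *hand2 FLD*-/-, *nkx2.9* had a ratio of 6.33 and a log2 fold change of 3.60. A gene was called at a Benjamini-Hochberg adjusted p of at most 0.05 and a fold change of at least 1.5, the thresholds of the study. The test was limma in place of the DESeq2 of the study, so the calls and shares given here are not those of the study. Intervals are at 95%. P values set the difference between groups against the spread between the 3 libraries within each group, which limma moderates with the trend over all genes.

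The 8 genes, the pathway and marker lists and the tests were chosen with earlier results of these data known. Named from each list were the genes called in either experiment, up to the 6 with the largest log2 fold change among those with a mean of 20 or more, and the gene with the highest mean over both tables. The genes *boc*, *gas1a*, *disp1*, *scube1*, *dhh*, *hhat*, *hhatlb*, *gli2b*, *sufu*, *prdm1a*, *foxc1b*, *mycn* and *csnk1e*, the single marker genes and the KEGG term were added after their values were seen. Transcript lengths were not used here, so levels are not ranked between genes per length. Alternatives were pseudocounts of 0.5 and 5, no filter or a mean of 20, equal library totals, trimmed means of M values, no trend, the adjusted p alone, a fold of 2, the replicate number as a block, and each library left out.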

Additional observations from a re-analysis of the deposited data

How the results depend on the processing

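The call of *hhip* was kept in each experiment under every alternative run. With all libraries kept, its log2 fold change was from -1.14 to -1.08 in the mutant experiment and from 3.25 to 3.31 in *hand2* OE, and with single libraries left out from -1.18 to -1.05 and from 3.07 to 3.49. The adjusted p was at most 0.00344 and 0.0249 (limma). The count of called pathway components stayed at 1 in each experiment, except that the adjusted p alone gave 3 in *hand2 FLD*-/-. Over all pathway lists the 16 calls in *hand2 FLD*-/- became 29 by the adjusted p alone and 13 to 15 with single libraries left out, and the 4 calls in *hand2* OE became 7 by the adjusted p alone, 1 without the trend, and 1 to 3 with single libraries left out, the 1 without *hand2* OE replicate 2. Over all genes, 3310 calls in *hand2 FLD*-/- became 5292 by the adjusted p alone, 2105 at a fold of 2 and 2935 to 3156 with single libraries left out, and 677 calls in *hand2* OE became 1094, 387, and 357 to 569, and 203 without the trend, the 357 again without *hand2* OE replicate 2. With single libraries left out, genes that were not called changed sign: *ptch1* in *hand2 FLD*-/- ranged from -0.29 to 0.0949 (the latter without *hand2 FLD*-/- replicate 2), *smo* in *hand2 FLD*-/- from -0.0176 to 0.0469, and *gli1* in *hand2* OE from -0.41 to 0.0732. The cause of these changes was not tested.

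Libraries of the same number in the labels deviated together weakly at most, so the numbers were not read as pairs. Over genes, their correlations were between 0.0352 and 0.0552 in the mutant experiment and between -0.0708 and -0.00954 in the *hand2* OE experiment. Libraries of different numbers had correlations between -0.0369 and -0.000688 in the mutant experiment. With the replicate number as a block, 3186 genes were called in *hand2 FLD*-/- and 466 in *hand2* OE, *hhip* was called in both (adjusted p = 3.83e-05 and 0.00266, limma), and *foxc1b* in *hand2 FLD*-/- (0.0740) and *ift80* in *hand2* OE (0.0914) were not.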

Other observations

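Likeness of pattern was measured as the root mean square difference of log2(value + 1) over the 12 libraries, each library taken relative to the control mean of its experiment, among the 10739 genes whose mean reached 50 in both tables. The genes nearest to *ptch1* were *relb* (0.136), *ptpmt1* (0.221), *g6pc3* (0.227), *bcap29* (0.235) and *uck1* (0.240), beside a median of 0.466 over all genes. None of them was called in either experiment, which likeness to *ptch1*, itself not called, favours. The genes nearest to *gli1* were *arl2bp* (0.125), *fignl1* (0.152), *cinp* (0.160), *nsd3* (0.161) and *frmd8* (0.161), beside a median of 0.377. They too had no call, which likeness to the uncalled *gli1* favours.

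For *hhip*, added after its values were seen, the 3 nearest genes were at larger distances, beside a median of 1.78. They were *itga4* (0.502), the integrin alpha 4 gene, *eva1ba* (0.530) and CABZ01109081.1 (0.541). All 3 fell in *hand2 FLD*-/- and rose in *hand2* OE by the call thresholds, a direction that likeness to *hhip* itself selects. *itga4* fell by 1.97 on the log2 scale in *hand2 FLD*-/- and rose by 2.85 in *hand2* OE.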
